A study of Saccharomyces cerevisiae with 12 samples.

Results

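Ty5 calling cards of 2 forms of the yeast transcription factor Cbf1 were set against each other: the Cbf1 bHLH form, which has no leucine zipper (ZIP), and full-length Cbf1. In this assay a factor is fused at its C-terminus to Sir4, the protein that steers the retrotransposon Ty5 to chromatin, so that new Ty5 insertions gather near the places where the fusion sits. The pair was taken by its labels from a series of 12 libraries, 1 library for each of 12 groups. Both libraries came from Saccharomyces cerevisiae BY4741 of genotype sir4D cbf1D, so neither strain carried its own SIR4 or CBF1 and the fusion came from a plasmid. A second plasmid carried a barcoded, HIS3-marked Ty5 behind a galactose promoter. Each library started from a single clone that spent 3 days on galactose, 2 days on YPD and 3 days on SC-HIS plates with 5-FOA. A library of Cbf1 bHLH-ZIP in the same strain and genotype served as a further point of comparison, because the bHLH form lacks both the ZIP and the rest of the protein whereas the bHLH-ZIP form lacks the rest alone.

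Cbf1 is a basic helix-loop-helix leucine zipper protein. Its basic region contacts DNA at the E-box CACGTG, while the helix-loop-helix and the zipper hold 2 copies of the protein together as a dimer. In budding yeast Cbf1 is known for recruiting the activators Met4 and Met28 to genes of sulfate assimilation and methionine synthesis, for a place at promoters of respiratory genes, and for binding the CDEI element of centromeres.

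The libraries were of like depth. The bHLH library held 34942 insertions, 25688 of them in the 4532 intergenic regions of the deposited tables, and the full-length library held 34773, 27141 of them intergenic. The bHLH-ZIP library was smaller, with 10350 insertions and 8028 intergenic ones. Regions are named by their left and right genes, with coordinates as the files give them on a genome build that the sources used here do not name. A region's level is its share, the percentage of the library's intergenic insertions that fell in it. Of the 4532 regions, 1070 held at least 10 insertions in the pair and were tested. The listed insertions fall into 3 sorted blocks for bHLH, 4 for full length and 2 for bHLH-ZIP, called runs here. The labels do not name them, and they show spread inside a library rather than replicates. With 1 library a group, every test below compares 2 libraries, has no replicate check and covers counting error only. The gene bodies of CBF1 and SIR4 held 0 and 1 insertions in bHLH and 2 and 0 in full length, too few to check the deletions.

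The bHLH form placed a far smaller share of its insertions at the targets of full-length Cbf1 than the whole protein did. A target is a region bound in the full-length library, which requires a deposited Poisson p-value under 0.01 after Benjamini-Hochberg adjustment and at least 5 insertions. The 177 targets took 19.6% of bHLH insertions (95% exact interval 19.1 to 20.1), against 67.8% of full-length insertions (67.2 to 68.3), a 3.46-fold lower share. In the deposited background set the same regions held 8.18%, so the bHLH library stood 2.40-fold over background and the full-length library 8.29-fold. Because the targets were chosen on the full-length values, these shares are a description. The Cbf1 bHLH-ZIP library placed 75.0% of its insertions in the targets.

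The 3 bHLH runs gave 18.9%, 22.3% and 19.3% in the targets, and the 4 full-length runs gave 64.9%, 68.8%, 69.8% and 72.3%. Every bHLH run thus lay far below every full-length run and above the background. The 93 regions bound in bHLH-ZIP (2.05% of all regions) were chosen on neither library of the pair, and all 93 were also bound in full length. They held 13.4% of bHLH insertions (13.0 to 13.8), against 58.3% of full-length insertions (57.8 to 58.9), with 69.4% in bHLH-ZIP and 4.84% in the background. Of these 93 regions 70 were called lower in bHLH and 0 higher, with a median log2 ratio of -1.73. Among all 1070 regions tested, 9.81% were lower and 33.5% higher, with a median of 1.08. Recounting after insertions within 5 bp of each other were merged gave 12.2% in bHLH and 28.8% in full length for the 177 targets. The merging chains neighbouring insertions, so a crowded region can lose a larger part of its count than a sparse one. The bHLH list held 33799 distinct positions among its 34942 insertions and the full-length list 25563 among its 34773.

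**Figure D1:**
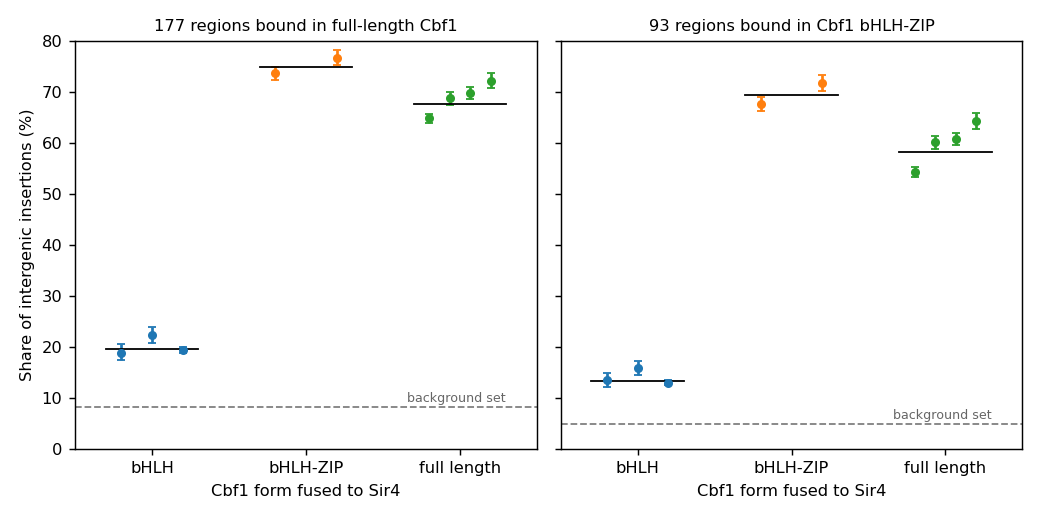
Share of intergenic insertions (%, vertical axis) in the 177 regions bound in full-length Cbf1 (left panel) and in the 93 regions bound in Cbf1 bHLH-ZIP (right panel), by form of Cbf1. Each point is a run with its exact 95% interval, black lines mark whole libraries and the dashed line the background set. The bHLH runs sit between 18.9% and 22.3% in the left panel and the full-length runs between 64.9% and 72.3%.

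Over all 1070 regions tested, the two-sided Fisher's exact test called 358 regions higher in bHLH (33.5%) and 105 lower (9.81%). For a call, the adjusted p had to be under 0.05 and the ratio of bHLH to full-length share, with 1 insertion added to each count, at least 2 or at most 0.5. The median log2 ratio of all regions tested was 1.08, and shares sum to the whole in each library, so that less in the targets means more elsewhere. Scaled on the regions bound in neither library, the log2 ratios moved by -1.31 and the calls were 10 higher and 230 lower. Scaled outside the 10 fullest regions of either library they moved by -0.45, with 149 higher and 143 lower. Among the targets, 176 were tested, of which 100 were lower, 0 higher and 76 not called. Their median log2 ratio was -1.39. The count of lower targets depended on the third bHLH run, which supplied 27749 of the insertions: without it, 49 targets were called lower. Whether its depth or another trait of that run matters was not tested. With insertions within 5 bp merged, 59 targets were lower, among 65 lower and 6 higher regions in all.

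**Figure D2:**
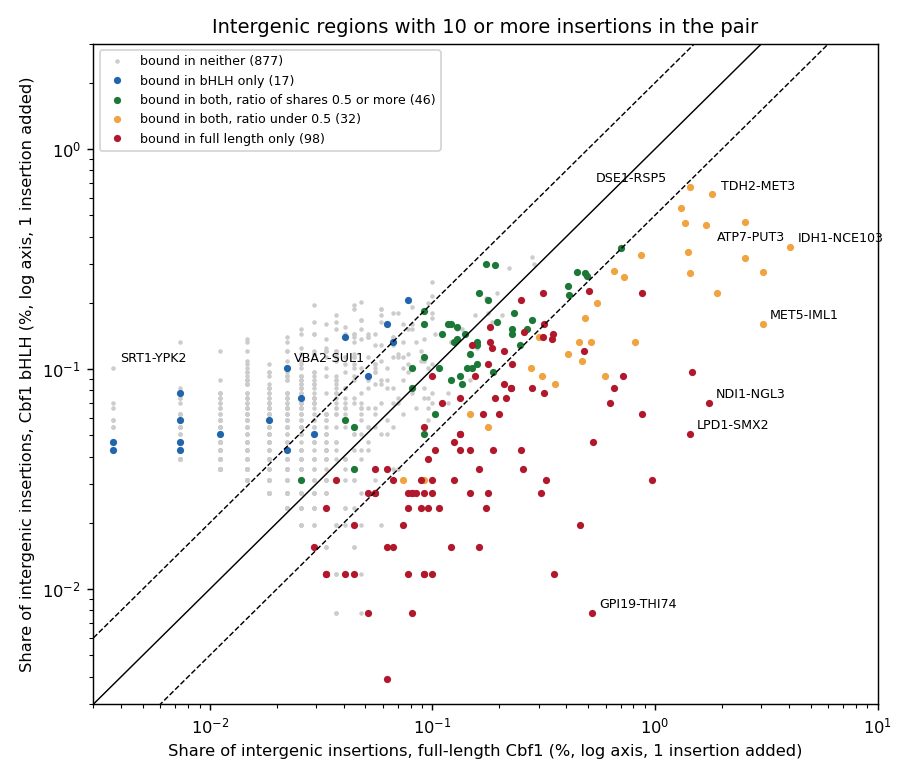
Share of intergenic insertions in Cbf1 bHLH (%, vertical log axis) against full-length Cbf1 (%, horizontal log axis), 1 insertion added to each count, for the 1070 regions tested. Colours mark where a region was bound, the solid line marks equal shares and the dashed lines a ratio of 2 and of 0.5. The fullest full-length targets at the right lie below the lower dashed line.

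The fullest targets of full-length Cbf1 were all lower in bHLH. IDH1-NCE103 (chromosome 14, 559003 to 559815) lies between the divergent genes of an NAD-dependent isocitrate dehydrogenase subunit and of carbonic anhydrase. It held 91 bHLH insertions, or 0.354% (0.285 to 0.435), against 1099 full-length insertions, or 4.05% (3.82 to 4.29), and 3.70% in bHLH-ZIP. The share was 11.4-fold lower in bHLH (9.22 to 14.3; Fisher's exact test, adjusted p = 1.40e-209). By run it was 0.281%, 0.436% and 0.352% in bHLH and 3.65%, 4.76%, 3.76% and 4.74% in full length, with no overlap. The bHLH share was still 7.34-fold that of the background, and the region was bound in both libraries. The 91 bHLH insertions stood at 70 distinct positions and the 1099 full-length insertions at 383. Folds, intervals and tests count repeats of a position separately.

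MET5-IML1 (chromosome 10, 683276 to 684558) precedes the gene of the sulfite reductase beta subunit. It held 40 bHLH insertions, or 0.156%, and 827 full-length insertions, or 3.05%, a 19.6-fold lower share (14.3 to 27.6). CAF120-MET2 (chromosome 14, 116453 to 117349), upstream of homoserine O-acetyltransferase, held 0.273% and 3.04%, an 11.2-fold lower share. Both stayed bound in bHLH, at 7.37-fold and 5.16-fold over background, against 144-fold and 57.6-fold in full length. GNP1-SMT3, shared by a glutamine permease and the gene of SUMO, was 8.04-fold lower at 0.315% in bHLH and 2.53% in full length. LAC1-CAP1, upstream of a ceramide synthase gene, was 8.67-fold lower. Distinct positions at MET5-IML1, CAF120-MET2, GNP1-SMT3 and LAC1-CAP1 numbered 37, 63, 65 and 45 in bHLH. In full length they numbered 394, 316, 248 and 228. ATG41-RPL36B was 5.45-fold lower, but after merging insertions within 5 bp its log2 ratio was 0.19. Its 119 bHLH insertions stood at 109 distinct positions and its 685 full-length insertions at 325, over 981 bp. Why the ratio of ATG41-RPL36B turned was not tested.

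NDI1-NGL3 (chromosome 13, 29807 to 32334), upstream of the internal NADH dehydrogenase of mitochondria, had a bHLH share equal to that of the background, and 23 of the 177 targets lay at or below theirs. It held 17 bHLH insertions, or 0.0662% (0.0386 to 0.106), 471 full-length insertions, or 1.74%, and 1.45% in bHLH-ZIP, where the background share was 0.0664%. That made it 26.2-fold lower in bHLH (16.2 to 45.4). CDC34-PST1, which serves a ubiquitin-conjugating enzyme and a cell wall protein, held 24 and 395 insertions and was 15.6-fold lower. These were the members of the 10 fullest targets that were not bound in bHLH, and the other 8 were bound in both libraries. Together the 10 fullest took 3.01% of bHLH and 23.8% of full-length insertions, with 31.0% in bHLH-ZIP.

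The targets were also read in the order of their full-length share. Targets ranked 11 to 50 took 7.23% of bHLH and 26.9% of full-length insertions, and 34 of these 40 were called lower. For ranks 51 to 100 the shares were 5.63% and 10.5%, with 23 of 50 lower. For ranks 101 to 177 they were 3.75% and 6.54%, with 33 of 77 lower. The median log2 ratios were -3.28, -1.97, -0.95 and -1.21 from the first to the last of these groups. Ordering by the full-length share itself favours lower ratios at the top. The low ranks hold few insertions, so that a like fold is harder to call there.

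**Figure D3:**
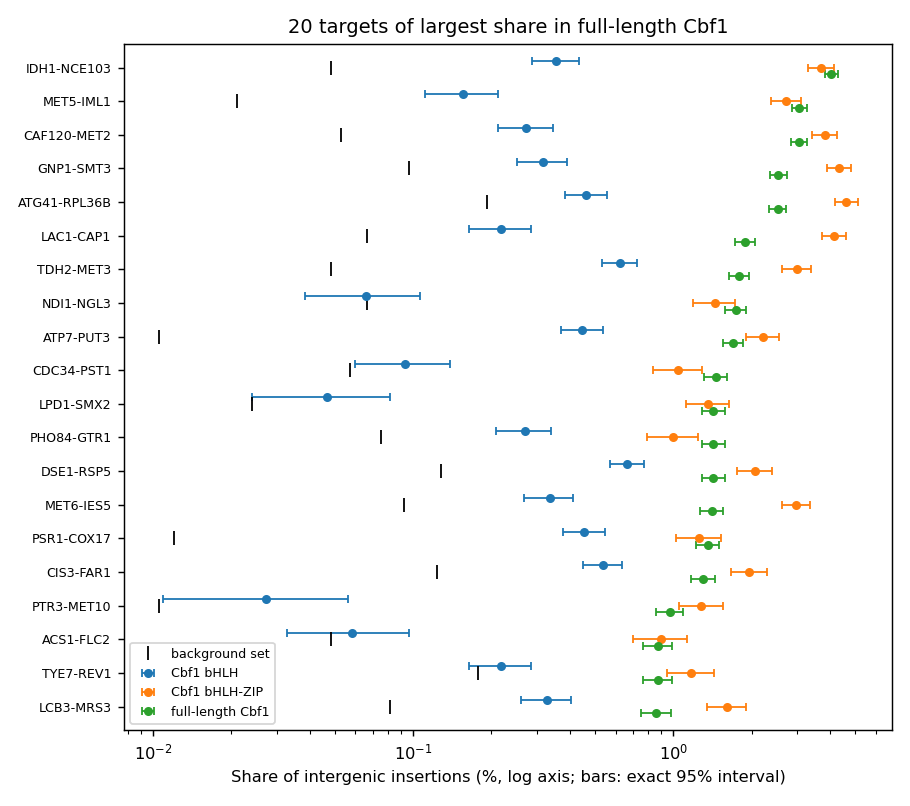
Share of intergenic insertions (%, log axis) of the 20 targets with the largest share in full-length Cbf1, with exact 95% intervals, in Cbf1 bHLH, Cbf1 bHLH-ZIP and full-length Cbf1. Black ticks mark the background set. At IDH1-NCE103 the bHLH point lies at 0.354% and the full-length point at 4.05%, and at NDI1-NGL3 the bHLH point meets the background tick.

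Of the 177 targets, 78 were also bound in the bHLH library, which is 44.1% of the targets and 78.8% of the 99 regions bound in bHLH. Over all 4532 regions the share bound was 2.18% in bHLH and 3.91% in full length. The 78 regions took 14.3% of bHLH and 44.1% of full-length insertions. Their bHLH share exceeded the background share in every bHLH run for 62 of the 78, beside 180 of the 1070 regions tested. The runs are parts of the library in which the 78 were chosen for standing over background, so this follows in part from the choice. Without the third bHLH run, 29 regions were bound in bHLH, 27 of them targets and 14 of these at a like share. The 78 split by the ratio of shares into 46 with a ratio of at least 0.5, kept at a like share, and 32 with a lower ratio. Just over that limit stood PCT1-ADE3 at a log2 ratio of -0.99, and just under it DSE1-RSP5 at -1.09. The limit of bound depends on the background count of a region: FUN30-PSK1, with 8 bHLH insertions and 5 in the background set, was just inside it, and SNC2-PDR10, with 23 and 31, just outside.

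The 46 targets kept at a like share took 6.67% of bHLH insertions (6.37 to 6.98), against 8.42% of full-length insertions (8.09 to 8.75), with 6.48% in bHLH-ZIP and 2.20% in the background. Their median share was 3.54-fold over background in bHLH and 4.22-fold in full length. The split by ratio itself favours low full-length shares. With the background share subtracted from both, 34 of the 46 kept a ratio of at least 0.5. The 32 with a lower share took 7.59% and 35.7%, at a median of 4.18-fold and 15.1-fold over background. The 99 targets not bound in bHLH took 5.35% and 23.7%, at 1.29-fold and 4.88-fold. The background share of the last group was 4.28%. Its members were chosen for not standing over the background in bHLH, so this level follows from the choice. In each bHLH run 17 of the 99 exceeded the background share, beside 180 of the 1070 regions tested. On the scale of regions bound in neither library, 33 of the 46 kept at a like share were called lower and 10 targets were kept at a like share.

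The 5 fullest regions of the bHLH library were all full-length targets called lower in bHLH, at 2.40-fold (ATG41-RPL36B) to 37.7-fold (PSR1-COX17) over background. DSE1-RSP5 (chromosome 5, 409059 to 410185), between a daughter-cell-specific gene and the ubiquitin ligase gene RSP5, was the fullest region of the bHLH library. It held 171 bHLH insertions, or 0.666% (0.570 to 0.773), against 387 full-length insertions, or 1.43% (1.29 to 1.57), a 2.14-fold lower share (1.79 to 2.58; Fisher's exact test, adjusted p = 1.95e-16). By run, bHLH gave 1.00%, 1.09% and 0.567% and full length 1.12%, 1.70%, 1.61% and 1.69%, close at the nearest pair of runs but without overlap. TDH2-MET3 (chromosome 10, 454674 to 456232), shared by a glyceraldehyde-3-phosphate dehydrogenase and ATP sulfurylase, held 0.623% and 1.79%, a 2.88-fold lower share. CIS3-FAR1, upstream of a cell wall mannoprotein gene, held 138 and 354 insertions.

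Among the targets, ATP7-PUT3 and PSR1-COX17 stood highest over background in bHLH, on 7 and 8 background insertions, so that these multiples are imprecise. ATP7-PUT3 (chromosome 11, 407632 to 408187), shared by a subunit of ATP synthase and the activator of proline use, held 115 bHLH and 461 full-length insertions. Its share was 42.4-fold over background in bHLH and 161-fold in full length. PSR1-COX17 (chromosome 12, 130612 to 131204), upstream of a plasma membrane phosphatase gene, held 117 and 369 insertions, at 37.7-fold and 113-fold over background. Of the 177 targets, 7 reached 10-fold over background in bHLH and 54 in full length.

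Among the targets kept at a like share, PCT1-ADE3 was the fullest in bHLH, at 1.95-fold over background beside 3.90-fold in full length. It is shared by the rate-limiting enzyme of phosphatidylcholine synthesis by the CDP-choline route and C1-tetrahydrofolate synthase, and held 0.350% in bHLH and 0.700% in full length, a ratio of 0.5005 (0.385 to 0.646; Fisher's exact test, adjusted p = 5.47e-07). WSC2-POP3, upstream of a cell wall stress sensor and of a subunit of RNase P, held 76 bHLH and 46 full-length insertions, or 0.296% and 0.169%. RIM15-HAC1, upstream of a nutrient-responsive kinase and of the regulator of the unfolded protein response, held 46 and 24 insertions. The runs of WSC2-POP3 ranged from 0.230% to 0.762% in bHLH and from 0.161% to 0.176% in full length. WSC2-POP3 and RIM15-HAC1 were higher in bHLH at adjusted p = 0.0102 and 0.0174 by Fisher's exact test. Neither region passed the fold of 2 on the ratio with 1 insertion added. PIC2-GIP2, NCA3-ASF1, GDH1-ATF1 and COI1-RPP2B also had more insertions in bHLH than in full length, with ratios of shares of 1.55, 1.38, 1.17 and 1.32. None was called, and PIC2-GIP2 alone of them had an adjusted p under 0.05 (0.0375, Fisher's exact test). The log2 ratios of WSC2-POP3, RIM15-HAC1 and PIC2-GIP2 (0.79, 0.99 and 0.63) lay under the median of 1.08 over all regions tested. Their full-length shares were 1.87-fold, 2.09-fold and 1.48-fold over background. RPI1-RHO3, RSM7-STE24, LEU4-MET4, NAG1-GSC2, POP1-ADE12, ASP3-4-MAS1 and MNN4-PTK1 had ratios between 0.528 and 0.767. Of these, ASP3-4-MAS1 alone had an interval that reached 1 (0.511 to 1.14), and the other 6 were lower in bHLH at adjusted p between 0.00019 and 0.0202 by Fisher's exact test, short of the fold of 2.

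The name of a like share covers a ratio of shares from 0.5 upward and does not say that the shares are equal. GSH1-LSB6 (chromosome 10, 236352 to 237259) precedes gamma-glutamylcysteine synthetase, which starts glutathione synthesis. It held 41 bHLH and 52 full-length insertions, or 0.160% (0.115 to 0.217) and 0.192% (0.143 to 0.251). The ratio was 0.833 with an interval of 0.539 to 1.28. Its share was 5.88-fold over background in bHLH and 7.05-fold in full length. Picked after their values were seen, GAR1-YNG2 held 25 and 28 insertions, at 32.2-fold and 34.2-fold over background, and SAH1-ERG28, upstream of S-adenosylhomocysteine hydrolase, held 34 and 34, at 11.0-fold and 10.4-fold. The background set held 2 insertions in GAR1-YNG2 and 8 in SAH1-ERG28, so these multiples are imprecise.

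The targets with the lowest ratios had few bHLH insertions, from 0 to 40. GPI19-THI74 held 1 bHLH and 140 full-length insertions, 133-fold lower with an interval of 23.4 to 5271. VTC3-CTF19, shared by a subunit of the vacuolar polyphosphate polymerase complex and a kinetochore protein, held 2 and 94 insertions, 44.5-fold lower (11.98 to 373). PTR3-MET10 (chromosome 6, 212961 to 213300), upstream of the sulfite reductase alpha subunit, held 7 and 263 insertions, 35.6-fold lower (17.02 to 89.3). LPD1-SMX2 (chromosome 6, 103121 to 103693), shared by dihydrolipoamide dehydrogenase and a spliceosomal Sm protein, held 12 and 387, 30.5-fold lower (17.3 to 59.6). The smaller bHLH-ZIP library held 21, 23, 103 and 109 insertions in these 4 regions, more in each than the bHLH library. VTC4-RPC17 held 4 and 124 insertions, ACS1-FLC2, upstream of an acetyl-coenzyme A synthetase, 15 and 237, and SDH7-EMI1 0 and 16. SDH7-EMI1 was at least 5.05-fold lower, taking 3 insertions as the floor in the bHLH library.

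The bHLH form was also set directly against bHLH-ZIP, which has the zipper and lacks the rest of Cbf1. Of 807 regions tested, 70 were higher in bHLH (8.67%) and 57 lower (7.06%), and all 57 lower regions were targets of full length. Of the 151 targets tested in this pair, 57 were lower and 5 higher. IDH1-NCE103 had a log2 ratio of -3.37 over bHLH-ZIP beside -3.50 over full length, MET5-IML1 -4.10 beside -4.26 and PTR3-MET10 -5.38 beside -4.97. PSR1-COX17 had -1.47 beside -1.57, and DSE1-RSP5 -1.63 beside -1.09. Both comparisons use the same bHLH library.

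Of the gene lists, sulfur assimilation and methionine synthesis held the most targets. Their 31 regions took 3.01% of bHLH insertions (2.80 to 3.22), against 14.4% of full-length insertions (13.9 to 14.8), with 18.3% in bHLH-ZIP and 1.07% in the background. Of 28 regions tested, 16 were lower and 3 higher in bHLH, beside 9.81% lower and 33.5% higher of all regions tested. The median log2 ratio of the list was -1.53, beside 1.08 over all regions tested. Of 20 targets, 10 were also bound in bHLH, 3 of them at a like share: GSH1-LSB6, SAH1-ERG28 and BET3-MET1, the last upstream of an enzyme of siroheme synthesis. In the sulfate branch, EXG1-MET17, upstream of O-acetylhomoserine sulfhydrylase, held 20 and 176 insertions (8.33-fold lower) and was not bound in bHLH. MET6-IES5, upstream of methionine synthase, held 86 and 382 (4.20-fold lower) and was bound in both. Both sulfite reductase subunits, MET5 and MET10, thus lay beside regions among the 10 lowest ratios, bound in bHLH at MET5 and not at MET10.

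Regions of the regulators of sulfur genes were also lower where they were called. Their 6 regions took 0.736% and 2.31%, and 3 of 5 tested were lower and 0 higher, with a median log2 ratio of -1.23. Over all regions tested, 9.81% were lower and 33.5% higher, with a median of 1.08. MET28-YAP5, upstream of the Met4 partner Met28, held 71 bHLH and 177 full-length insertions and was 2.36-fold lower, at 4.70-fold over background in bHLH. SYG1-MET30, upstream of the F-box protein that restrains Met4, held 33 and 220 and was 6.31-fold lower. LEU4-MET4, upstream of Met4 itself, held 67 and 133, or 0.261% and 0.490%, a ratio of 0.532 (0.391 to 0.719; Fisher's exact test, adjusted p = 0.00019). It was bound in both libraries and fell short of the fold of 2. PTK2-CBF1, upstream of CBF1, held 7 and 87 and was 11.8-fold lower. CBF1 itself was deleted and its coding sequence was on a plasmid.

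The 22 regions of the citric acid cycle and pyruvate dehydrogenase took 1.02% of bHLH and 5.94% of full-length insertions, but 3 of 14 tested were lower and 1 higher, with a median log2 ratio of 0.68. IDH1-NCE103 and LPD1-SMX2 carried most of the full-length insertions. With regions upstream of a single gene alone, the pooled log2 ratio was 0.079 in place of -2.54. CIT1-ATO2, upstream of citrate synthase, was the other lower region, with 26 and 61 insertions. The 33 regions of the respiratory chain and ATP synthase took 1.43% and 4.36%, with 5 of 17 lower and 3 higher and a median log2 ratio of 0.22. NDI1-NGL3 and ATP7-PUT3 led it, and with regions upstream of a single gene alone the pooled log2 ratio was 0.00293 in place of -1.60. Of all regions tested, 9.81% were lower and 33.5% higher. COX17-DRS1, upstream of a copper chaperone for cytochrome oxidase, held 3 and 32 insertions, 10.1-fold lower (3.16 to 51.5). QCR6-PHO4, upstream of a subunit of the cytochrome bc1 complex, held 15 and 39, while OSH7-QCR10 and YNG1-CYT1, upstream of further subunits of that complex, were kept at a like share with 21 and 36 and with 22 and 32 insertions.

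The 20 regions of the phosphate regulon took 1.06% and 3.23%, with 5 of 11 lower, 1 higher and a median log2 ratio of -0.71, beside 9.81% lower, 33.5% higher and 1.08 over all regions tested. PHO84-GTR1 (chromosome 13, 25801 to 26930), upstream of the high-affinity phosphate transporter, held 69 bHLH and 387 full-length insertions and was 5.31-fold lower, at 3.56-fold and 18.9-fold over background. SPL2-ARO9, upstream of an inhibitor of low-affinity phosphate transport, held 43 and 131 and was bound in both. Of the 43, 0 lay within 100 bp of the region's median bHLH-ZIP insertion. VTC1, VTC3 and VTC4, whose products belong to the vacuolar polyphosphate polymerase complex, lay downstream of regions with 6 and 21, 2 and 94, and 4 and 124 insertions. None of these 3 was bound in bHLH.

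Glycolysis and ethanol fermentation regions took 2.26% and 3.54%, with 7 of 17 higher and 5 lower, beside 33.5% higher and 9.81% lower of all regions tested. Their pooled log2 ratio of -0.65 was -0.095 without TDH2-MET3 and 0.96 with regions upstream of a single gene alone. Among them PDI1-GLK1, upstream of glucokinase, held 66 and 195 insertions and was bound in both, while PEP8-TDH1, ADP1-PGK1 and SUP45-ADH5 were lower and not bound in bHLH. Amino acid permease regions took 1.53% and 2.97%, with 6 of 14 higher and 1 lower, and GNP1-SMT3 held most of the full-length insertions. Without it the pooled log2 ratio of the permeases was 1.50 in place of -0.95. Galactose gene regions took 0.420% and 0.162%, with 1 of 4 higher and a median log2 ratio of 1.04 beside 1.08 for all regions tested. Their pooled log2 ratio of 1.37 was 0.064 on the scale of regions bound in neither library. Regions of genes deleted in the strains or carried on plasmids took 0.179% and 0.987%, with 2 of 4 lower (PTK2-CBF1 and EXG1-MET17) and 1 higher. The 126 ribosomal protein regions took 4.18% and 2.14%, with 19 of 46 higher and 2 lower, at a median log2 ratio of 1.08, that of all regions tested. Their pooled log2 ratio of 0.97 turned to -0.34 on the scale of regions bound in neither library.

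The 16 regions that span a centromere took 0.965% of bHLH insertions (0.849 to 1.09), against 1.28% of full-length insertions (1.15 to 1.42), with 1.27% in the background. Of 14 tested, 1 was lower and 0 higher, beside 9.81% lower and 33.5% higher of all regions tested. The lower region was MET14-VPS1 (chromosome 11, 439028 to 440251), which also precedes the gene of adenylylsulfate kinase, with 17 bHLH and 169 full-length insertions (9.41-fold lower). Without it the pooled log2 ratio was 0.45.

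Regions with the highest ratios were empty or nearly so in full length and near background in bHLH. SRT1-YPK2 held 25 bHLH and 0 full-length insertions, at least 8.80-fold higher against a floor of 3 in the full-length library, and its bHLH share was 1.04-fold that of the background. PFK2-HFA1, upstream of a phosphofructokinase subunit, held 33 and 1, a ratio of 34.9 (5.84 to 1418), at 0.946-fold the background. The other 8 of the 10 highest ratios all had 0 full-length insertions. The bHLH shares of GAL1-FUR4, ERV1-POP6, HAL1-ICL2, RPS26B-PMD1, IST2-RFC5, VID24-SND3 and SKG6-PEX28 lay between 0.986-fold and 2.41-fold of the background and that of TIF4631-GTR2 at 3.15-fold. Regions bound in neither library held 78.9% of bHLH, 31.8% of full-length and 91.3% of background insertions. Of the 10 highest ratios, 4 were called higher on the scale of those regions.

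Bound in bHLH and not in full length were 21 regions, with 1.46% and 0.409% of insertions and 0.564% in the background. They were chosen for being bound in bHLH alone, so a higher share there follows in part from the choice and is given without a count of calls. SWE1-MNN5, between a cell cycle kinase gene and a mannosyltransferase gene, held 52 and 20 insertions, a ratio of 2.75 (1.61 to 4.86), with a log2 ratio of -0.68 after merging within 5 bp. VBA2-SUL1, upstream of a sulfate permease, held 25 and 5, at 5.86-fold and 1.11-fold over background. Its insertions came mostly from the third bHLH run, with 1, 1 and 23 by run. MHT1-MMP1, between genes that use and import S-methylmethionine, held 14 and 1, a ratio of 14.8 (2.25 to 625.5), and HES1-ABP140 held 19 and 1. PRM10-IME2, SUR1-LGE1, SKY1-GUA1, YPS1-YPS3 and TIF4631-GTR2 were further regions of this kind, as were SMI1-BNS1 and ICY1-VTI1.

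Of the 78 targets bound in both libraries, 43 were divergent, 35 tandem and 0 convergent. Of the 99 not bound in bHLH, 42 were divergent, 53 tandem and 4 convergent, beside 1163 divergent regions among all 4532. Of the 1070 regions tested 455 were divergent, and no test was made between these classes.

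The place of the insertions inside targets was read against the form that has the zipper. In 79 regions bound in bHLH-ZIP with at least 10 of its insertions, the median bHLH-ZIP insertion was taken as the centre. Within 100 bp of it lay 62.4% of bHLH insertions in these regions (60.7 to 64.1, of 3305), 63.6% of full-length insertions (62.9 to 64.4, of 15381) and 69.4% of bHLH-ZIP insertions, which set the centre. The pooled bHLH and full-length intervals overlapped, but pooling weights each region by its insertions in that library, and the classes below differed. The median distance of a region's median insertion from the centre was 23.5 bp in bHLH and 13 bp in full length. Libraries of factors of other families, measured in strains with CBF1, gave 28.5% for Gcr1, 29.5% for Gcr2 and 22.6% for Cst6. At ATP7-PUT3, 90.4% of 115 bHLH and 85.7% of 461 full-length insertions lay within the window, and at PSR1-COX17 it was 88.0% of 117 and 77.2% of 369. At IDH1-NCE103 the values were 82.4% of 91 and 40.1% of 1099, with median offsets of 22.0 bp in bHLH and -79.0 bp in full length. The order was the other way at CIS3-FAR1 (71.7% of 138 and 81.4% of 354) and MET6-IES5 (60.5% of 86 and 72.5% of 382). At SPL2-ARO9 the window held 0 of 43 bHLH and 35.9% of 131 full-length insertions. Its median offsets were 187.5 bp in bHLH and 131.5 bp in full length. In 44 of the 79 regions the interquartile range of insertion positions was wider in bHLH than in full length.

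The window share differed by class. In the 27 regions kept with a lower share it was 69.5% in bHLH and 60.7% in full length. In the 18 kept at a like share it was 60.0% and 74.0%. In the 34 not bound in bHLH it was 44.8% (40.9 to 48.7, of 639) and 66.5%, with 37.1% for Gcr1, 40.1% for Gcr2 and 18.5% for Cst6. No test was made between libraries here.

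**Figure D4:**
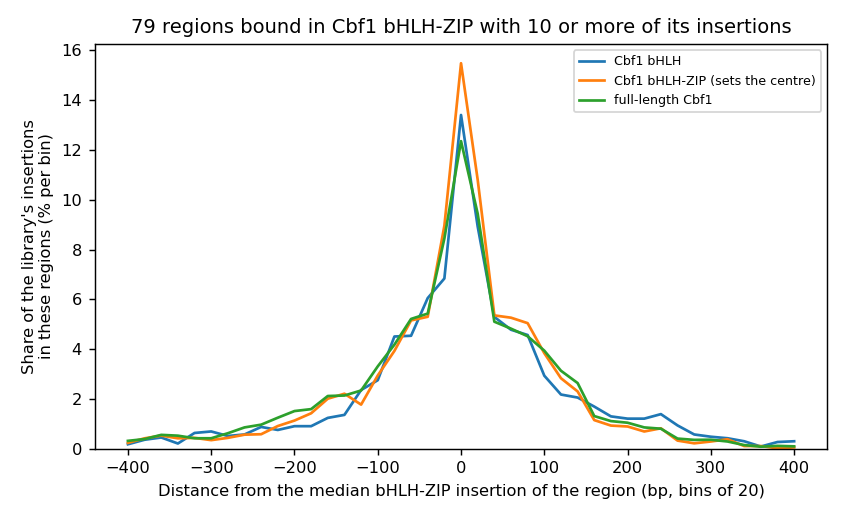
Distance of insertions from the median Cbf1 bHLH-ZIP insertion of their region (bp, bins of 20, horizontal axis) and share of each library's insertions in these 79 regions (% per bin, vertical axis). The lines are Cbf1 bHLH, Cbf1 bHLH-ZIP and full-length Cbf1, and all 3 peak at the centre, with 62.4% of bHLH and 63.6% of full-length insertions within 100 bp.

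In the rest of the series, libraries whose factor carried a Cbf1 zipper placed most insertions in the 177 targets. The share was 62.8% for Cbf1 bHLH-ZIP with the basic region of Tye7 and 60.8% for the NPAS2 bHLH joined to the Cbf1 ZIP. The NPAS2 bHLH without it had 11.5%, where Cbf1 bHLH had 19.6%. The libraries of Tye7, Gcr1, Gcr2, Cst6 and TEF1p-Tye7 with and without GCR2 had 11.4% to 17.4%. In the 32 regions kept with a lower share, Cbf1 bHLH had 7.59%, against 37.6% for the NPAS2 bHLH with the Cbf1 ZIP and 3.31% for the NPAS2 bHLH alone. In the 46 kept at a like share the values were 6.67%, 3.71% and 3.06%, and full-length Cbf1 had 8.42%. Both groups of regions were chosen for being bound in Cbf1 bHLH and full-length Cbf1, and the NPAS2 libraries had no part in the choice. The Cbf1 bHLH values therefore follow in part from the choice. The NPAS2 libraries were shallow, with 2859 intergenic insertions with the ZIP and 2415 without.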

How the data were processed

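Ty5 insertions were mapped by inverse PCR from 3 restriction digests (HinP1I, HpaII and TaqαI), per the labels' protocols, and reads were aligned with Novoalign, per the submitters' processing notes. For each library the authors deposited a list of insertions with counts of supporting reads, and a table of insertion counts per intergenic region for the library and a background set of 103922 insertions (66271 intergenic). The tables also hold fractions of all insertions and Poisson p-values, as deposited by the authors. Recounting the lists gave the table counts in all 4532 regions, and the deposited p-values were recomputed from the background scaled to library size plus 0.2, to within 2e-14.

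Shares, ratios and exact 95% intervals (Clopper-Pearson for shares, conditional for ratios) were computed with scipy 1.17.1. Two-sided Fisher's exact tests compared insertions inside and outside each region, with Benjamini-Hochberg adjustment over all regions tested. The tests were checked on simulated data. Folds were taken on raw shares, and against 0 insertions on a floor of 3. A region counts for each flanking gene whose start it precedes. Of 4657 gene identifiers, 4656 were named from RefSeq R64, used for names only.

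Named regions were the 10 fullest in full length, up to 15 kept at a like share by bHLH share, the 10 targets of lowest and 10 regions of highest ratio among those called, up to 10 bound in bHLH only, the 5 fullest in bHLH, and up to 6 bound members of each gene list. Members, lists and rules were chosen with earlier results of these data known. Intervals and floors cover counting error only, as inverse PCR reads without molecular identifiers are not independent molecules.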

Additional observations from a re-analysis of the deposited data

How the results depend on the processing

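The lower share of bHLH in the 177 targets kept its direction under every setting run, with pooled log2 ratios from -2.13 (targets chosen in bHLH-ZIP) to -1.23 (insertions within 5 bp merged) beside -1.79. Counts of calls moved more. Regions higher and lower in bHLH numbered 358 and 105 as reported. A minimum of 20 insertions gave 208 higher, a minimum of 5 reads 218, runs on 1 side 200 (an alternative chosen after seeing the data), scaled outside the 10 fullest 149, scaled on regions bound in neither library 10 higher and 230 lower, and merged within 5 bp 6 higher and 65 lower. Targets called lower numbered 161 on the scale of regions bound in neither library and 59 after merging. Leaving out each run in turn gave 78 to 324 higher, 49 to 107 lower, 49 to 104 targets lower, 27 to 77 targets bound in both, 29 to 99 regions bound in bHLH and 14 to 46 targets kept at a like share. The lowest of each came without the third bHLH run, which leaves few insertions. At an adjusted Poisson p under 0.05, 150 regions were bound in bHLH. Targets kept at a like share numbered 28 at an enrichment over background of at least 3, and 34 with background shares subtracted. On the scale of regions bound in neither library they numbered 10, a setting chosen after seeing the data. Of the 93 regions bound in bHLH-ZIP, 49 were bound in bHLH and 19 kept a like share.

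Pooled log2 ratios of gene lists depended on single regions. With regions upstream of 1 gene alone they were 0.079 for the citric acid cycle, 0.00293 for the respiratory chain, 0.96 for glycolysis and 1.51 for permeases, and without the fullest region -0.095 for glycolysis, 1.50 for permeases and 0.45 for centromeres. The galactose list was at 0.064 and the ribosomal protein list at -0.34 when scaled on regions bound in neither. Of the named regions, SWE1-MNN5 (-0.68) and ATG41-RPL36B (0.19) turned after merging. Over the named regions and settings, 1167 values kept their side of the threshold, 77 lost and 48 gained a call. A further 2 called values turned direction, and 2 values without a call gained one in the opposite direction. For values that stayed without a call, direction was not compared. The cause was not tested for any of these. No paired analysis was possible because each group has 1 library. Letters of E-boxes in promoters were not read, as no sequence was used here.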
